A study of Mus musculus with 6 samples.

Results

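The genes described are 39 components of T cell receptor signalling: subunits of the receptor complex and its coreceptors, kinases, adaptors, phosphatases, ubiquitin ligases and the enzymes and transcription factors that act after them. They were taken from a list of symbols, and each was read from the brightest probe set that carried exactly 1 gene symbol. All 39 were found among the 22180 genes measured. RNA came from the lungs of wild-type mice that had been sensitised and challenged with house dust mite (HDM), an allergen of the airways, or with PBS, the saline control. Cells of the digested lung were sorted for CD45 and CD4 and against CD11b and the product of Adgre1, a macrophage surface protein, so every group was a mixed population of lung CD4 cells. Each group held 3 arrays numbered as biological replicates, 1 sample per array. Age, dose, timing and the number of mice per sample are not given in the sources used here. The p-values therefore measure the spread between these samples.

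T cells recognise antigen through a receptor whose CD3 chains carry tyrosine motifs. Once these are phosphorylated by Src family kinases, ZAP-70 binds to them and phosphorylates the adaptors LAT and SLP-76, which assemble a complex that raises calcium, diacylglycerol and Ras activity and ends at NFAT, NF-κB and AP-1. Phosphatases, CSK, ubiquitin ligases of the CBL family and diacylglycerol kinases hold this cascade back. Of the 39 genes, 27 were counted as positive and 12 as negative regulators, an assignment from general knowledge. Roles in both directions have been described for 7 of them, Cd6, Themis, Fyn, Trat1, Grb2, Ptprc and Ubash3a.

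Signals were log2 values after RMA, which sets the arrays on a common distribution. The medians over all genes lay between 6.85 and 6.93. PBS replicate 3 gave the lowest of the 6 values for 18 of the 39 genes, more than any other array (4 or 5 each). Its median deviation from the genes' own means was −0.17, against −0.03 to 0.08 in the other 5 arrays. HDM replicate 3 deviated from its group in the same sense across genes (correlation of 0.53 with PBS replicate 3), so counts are also given without both arrays numbered 3. The gate genes were all measured. Cd4 lay between 12.47 and 12.73 and Ptprc, which encodes CD45, between 12.55 and 12.78, while Itgam, which encodes CD11b, lay between 7.19 and 7.97 and Adgre1 between 6.91 and 7.95. The summed signal of 4 measured T cell markers, Cd3d, Cd3e, Cd3g and Cd4, was 14.34 to 14.38 in PBS and 14.44 to 14.58 in HDM arrays. All 4 are among the 39 genes, so this sum is no separate measure of T cell content. That of 10 macrophage and monocyte markers, led by Lyz2, was 11.73 to 12.21 in PBS and 11.81 to 12.51 in HDM. The 7 B cell markers, led by Cd79b, summed to 10.05 to 10.58 and 10.01 to 11.24, and the 5 dendritic cell markers, led by Cd209a, to 10.69 to 10.88 and 10.94 to 11.06. The 5 neutrophil markers, led by Cxcr2, summed to 8.89 to 9.75 and 8.87 to 9.55, and the 5 natural killer cell markers, led by Tyrobp, to 9.46 to 10.19 and 9.62 to 10.62. Of the natural killer cell markers, Tyrobp was higher in HDM by 0.34, and the other 4, all dimmer, differed by −0.142 to −0.023. None of the 5 was called. The 2 CD8 T cell markers, led by Cd8b1, summed to 9.32 to 9.79 and 9.22 to 9.89. The 7 epithelial and stromal markers, led by Pecam1, summed to 12.19 to 12.78 and 11.81 to 12.41. Some single markers moved with HDM: Itgax, a dendritic cell and macrophage integrin that T cells can also carry, was higher by 1.06 (SE 0.22, adjusted p = 0.038), Cdh1 by 0.82 (SE 0.15, adjusted p = 0.0292), and Pecam1 fell by 0.51 (SE 0.08, adjusted p = 0.0169), but with 1 array left out their adjusted p reached 0.132, 0.113 and 0.0961. The other 4 dendritic cell markers differed by −0.015 to 0.159. With the replicate number as a block, limma also called Csf1r, a macrophage receptor, at 0.52 (adjusted p = 0.0488), Cdh5, an endothelial cadherin, at −0.90 (0.00979) and Sftpc, an alveolar surfactant gene, at −0.40 (0.0177), each with overlapping groups. Csf1r was the only marker of the 10 for macrophages and monocytes that was called. By the means, 7 of those 10 were higher and 3 lower in HDM. In the PBS arrays Pecam1 stayed between 11.58 and 11.64, while Cdh5 ran from 8.59 to 10.27. In HDM replicates 1, 2 and 3 the order was the same: 11.02, 11.04 and 11.25 for Pecam1 and 7.7, 8.6 and 9.8 for Cdh5. The part of other cells in the results below was not tested. In such bulk samples fewer cells of a type and less RNA per cell cannot be told apart.

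HDM was compared with PBS to ask which of these components changed in CD4 cells of the challenged lung. Of the 39, Ubash3b, Nfatc2 and Zap70 rose and Txk, Trat1 and Pag1 fell, with limma at an adjusted p below 0.05 over all 22180 genes, and 33 did not pass. Among all genes 2.39% were called higher and 1.56% lower, together 3.95%, against 15.4% of the 39. Among genes at or above the median level 10.7% were called when tested alone. All 39 are in that brighter group, and 9 of them (23.1%) were called there. The median difference over the 39 was 0.10 on the log2 scale, with a range from −1.11 to 0.96, and the median over all genes was −0.01. At an unadjusted p below 0.05, 8 of the 39 were higher and 6 lower, where 8.67% and 9.17% of all genes were. The HDM values lay wholly above the PBS values for 9 genes and wholly below for 5, where 10.8% and 11.8% of all genes did so. Leaving out PBS replicate 1, PBS replicate 2, HDM replicate 1 or HDM replicate 2 left 0 of the 39 higher and 1 lower, Trat1, with limma. At an unadjusted p below 0.05 the higher count was then 9, 8, 9 and 7, where 6.78% to 7.24% of all genes were higher, and the calls over all genes fell to between 0.983% and 1.23%. Without PBS replicate 3, 1 was higher and 2 lower, where 3.41% of all genes were called. Without HDM replicate 3, 3 were higher and 4 lower, where 7.06% were called. Each of the 6 called genes had separate groups, so leaving out 1 array could not change the sign of a difference. The members were listed with earlier results of these data known.

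**Figure D1:**
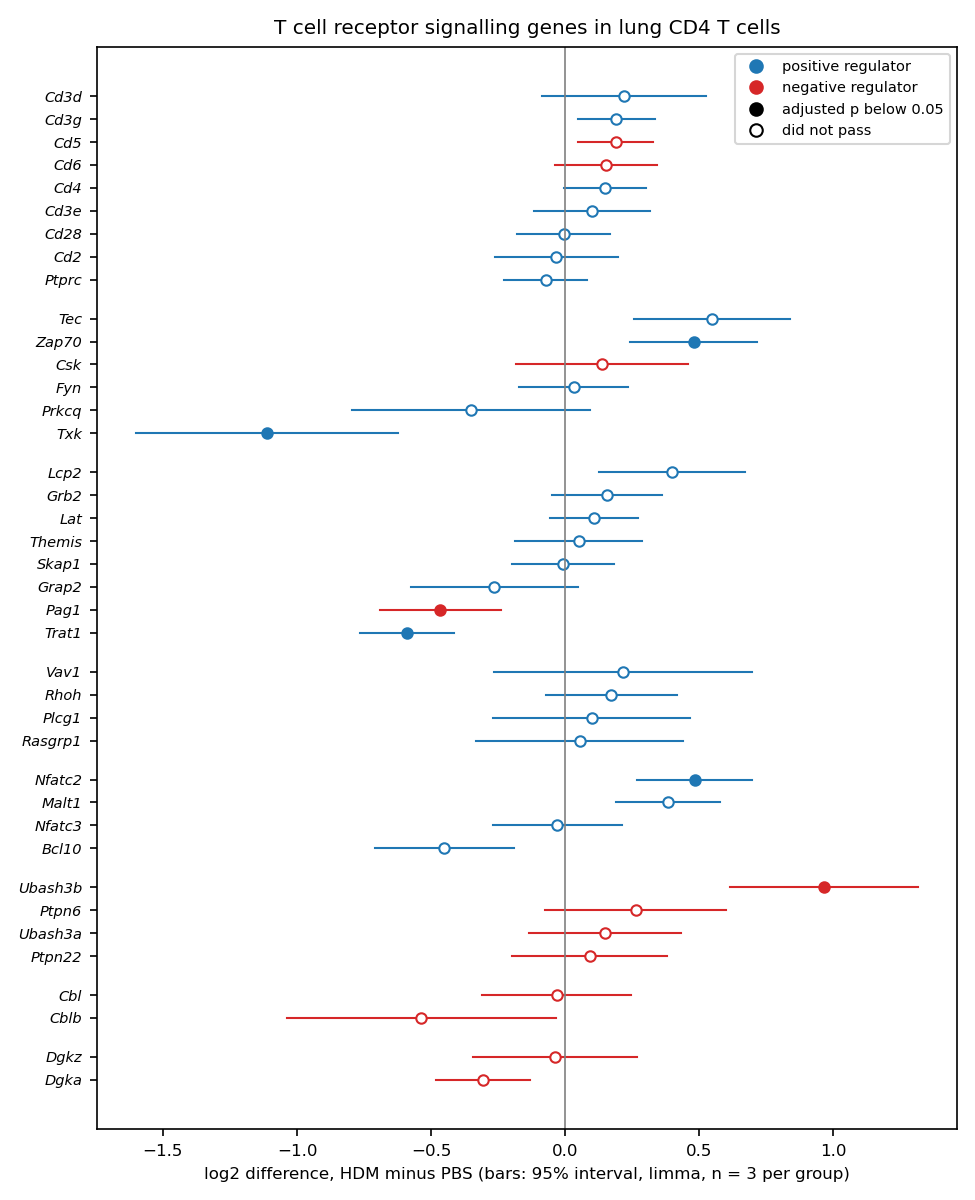
Log2 difference between HDM and PBS arrays for each of the 39 genes, grouped by role, with the 95% interval of the limma fit (3 arrays per group). Filled points passed at an adjusted p below 0.05. Blue and red points stand on both sides of 0, from −1.11 for Txk to 0.96 for Ubash3b.

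Positive and negative regulators each held rises and falls. Of 27 positive regulators 2 rose, 2 fell and 23 did not pass, with a median difference of 0.10. Of 12 negative regulators 1 rose, 1 fell and 10 did not pass, with a median of 0.11. With members of both roles left out, the medians were 0.10 over 22 positive and 0.03 over 10 negative regulators. Between arrays of the same number the positive median was −0.02, 0.07 and 0.13 and the negative median 0.04, 0.07 and 0.12 for numbers 1, 2 and 3. Without 1 array the positive median ran from −0.009 (PBS replicate 3 left out) to 0.128 (PBS replicate 1 left out), and the negative median from 0.061 (PBS replicate 3 left out) to 0.117 (HDM replicate 1 left out). Between same-numbered arrays, and without members of both roles, the medians were 0.025, 0.139 and 0.148 for positive and −0.032, −0.038 and 0.124 for negative regulators, higher for the positive ones in each pair. No test was made of the difference between the classes. Single members of either class differed by more than 0.4 in both directions.

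The deviations of same-numbered arrays correlated across genes at 0.43, 0.17 and 0.53 for numbers 1, 2 and 3. PBS replicate 1 also correlated with HDM replicate 2, at 0.25, so the match of number 2 was weak. A fit with the replicate number as a block called 16 of the 39, 8 higher and 8 lower. The background with the block was 5.95% of all genes higher and 6.01% lower, together 12%, against 41% of the 39. All 39 lie at or above the median level, and no share with the block was taken among such genes alone. Added to the 6 genes above were Lcp2, Malt1, Tec, Cd3g and Cd5 on the higher side and Cblb, Bcl10, Prkcq, Dgka and Grap2 on the lower side. Positive regulators made up 6 of the 8 higher and 5 of the 8 lower genes. Without both arrays numbered 3, an alternative chosen after the data were seen, 7 were called higher and 7 lower, where 11.6% of all genes were called. The labels do not say what the numbers stand for, so values with the block are named as such below.

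**Figure D2:**
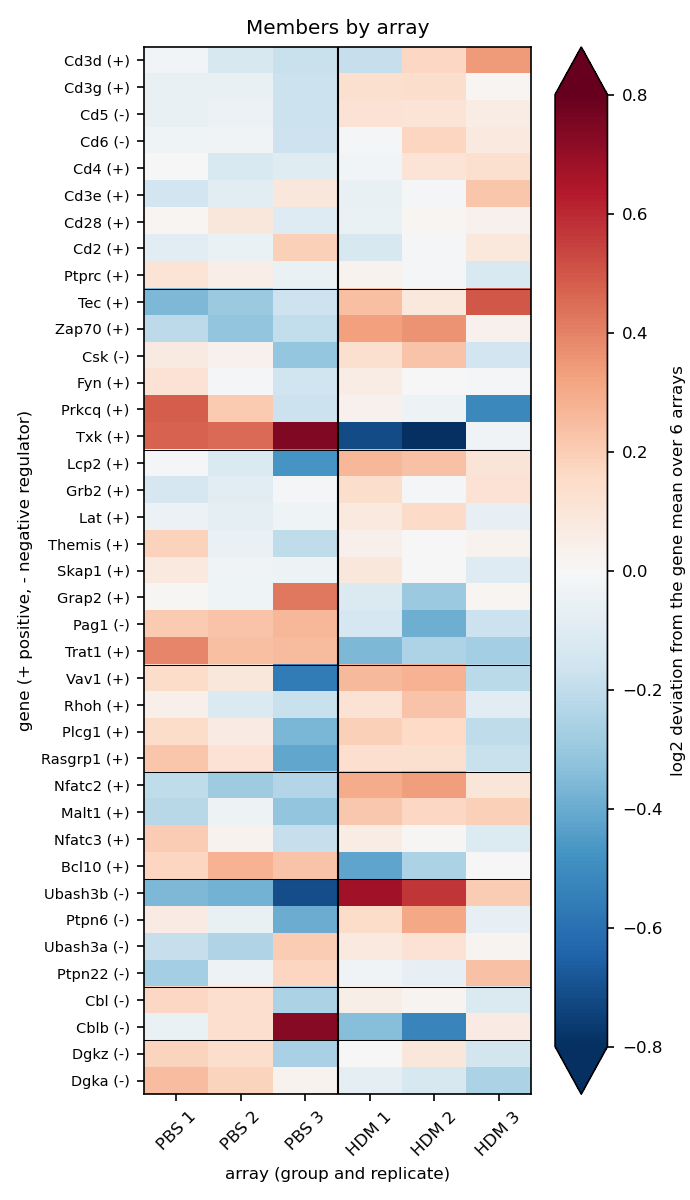
Deviation of each of the 39 genes from its own mean over the 6 arrays (colour, log2 units), with arrays in columns and genes in rows grouped by role; + and − mark positive and negative regulators. The column of PBS replicate 3 is blue for many genes and holds the lowest value of 18 of them, while Trat1, Pag1, Nfatc2 and Zap70 change colour between PBS and HDM in every replicate.

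The receptor complex and its surface partners showed small differences. None of 9 genes passed with limma, although 2 had an unadjusted p below 0.05, and their differences ran from −0.07 to 0.22. Cd3g, a signalling chain of the receptor complex, had 12.68, 12.68 and 12.56 in PBS and 12.86, 12.87 and 12.75 in HDM replicates 1, 2 and 3. The groups did not overlap, and the difference was 0.19 in each of the 3 pairs (SE 0.06, adjusted p = 0.151, 0.0308 with the replicate block). Its neighbours on the chromosome, Cd3d and Cd3e, differed by 0.22 (SE 0.13) and 0.10 (SE 0.09), with adjusted p of 0.462 and 0.662 and overlapping groups. In the first pair Cd3d was lower in HDM by 0.16, and in the other 2 it was higher by 0.29 and 0.52. Cd5, an inhibitory receptor whose surface level follows the strength of receptor signalling, had 12.21, 12.22 and 12.10 in PBS and 12.38, 12.38 and 12.33 in HDM. Those groups did not overlap either (0.19, SE 0.06, adjusted p = 0.15, 0.0458 with the block). Cd6, a related receptor next to Cd5, differed by 0.15 (SE 0.08, adjusted p = 0.396). Cd28, the main costimulatory receptor, stayed within −0.18 to 0.17 at the 95% level, and Cd2, an adhesion receptor, within −0.26 to 0.20. The coreceptor gene Cd4 differed by 0.15 (95% interval −0.004 to 0.30), and Ptprc, whose phosphatase activates Src family kinases, by −0.07 (95% interval −0.23 to 0.08).

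The kinases held the largest fall and one of the rises. Txk encodes a Tec family kinase of T cells that phosphorylates phospholipase C gamma. It gave 11.88, 11.86 and 12.15 in PBS replicates 1, 2 and 3 and 10.69, 10.48 and 11.38 in HDM. All HDM values were below all PBS values, with HDM replicate 3 the closest. PBS was 2.16-fold higher (log2 difference −1.11, SE 0.21, adjusted p = 0.0311). The call was lost without PBS replicate 1, 2 or 3 or HDM replicate 1 or 2, with adjusted p of up to 0.128. Tec, the founding member of the same kinase family, had a higher HDM mean: 7.80, 7.86 and 7.99 in PBS and 8.40, 8.24 and 8.66 in HDM. Those groups did not overlap, and the difference of 0.55 (SE 0.13) just missed the threshold (adjusted p = 0.0567, 0.0104 with the replicate block). Zap70, the kinase recruited to the phosphorylated receptor, had 10.58, 10.47 and 10.59 in PBS and 11.11, 11.14 and 10.82 in HDM. It rose 1.39-fold (0.48, SE 0.10, adjusted p = 0.045), in all 3 pairs, and least between the arrays numbered 3 (0.23). Leaving out any of the same 5 arrays ended this call too, with adjusted p of up to 0.203. Prkcq encodes protein kinase C theta, which links the receptor to NF-κB. It gave 12.25, 11.97 and 11.59 in PBS and 11.80, 11.72 and 11.24 in HDM, so the groups overlapped, and within the pairs HDM was lower by 0.45, 0.25 and 0.35. The difference of −0.35 (SE 0.19, adjusted p = 0.409) passed with the block (0.0109). It was −0.195 without PBS replicate 1, −0.179 without HDM replicate 3 and −0.524 without PBS replicate 3. Fyn, a Src family kinase, and Csk, which inhibits Src family kinases, differed by 0.03 (SE 0.09) and 0.14 (SE 0.14) and did not pass.

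Txk and Tec are neighbours on mouse chromosome 5, transcribed from the same strand, with 0 protein-coding genes between them in the RefSeq annotation of GRCm38.p6. Their promoters are shown because a neighbouring pair of 1 kinase family differed in opposite directions. Each is the 250 bases before the annotated start (for Txk the most upstream of 2), 5′ to 3′, from RefSeq. Capitals mark matches to 4 motifs searched on both strands: AGGAAG, a core bound by ETS factors, TGTGGT for RUNX factors, TGANTCA for AP-1 and GGAAAA for NFAT. The Txk window is chr5:72752778-72753027 and the Tec window chr5:72868449-72868698, both on the minus strand.
Txk: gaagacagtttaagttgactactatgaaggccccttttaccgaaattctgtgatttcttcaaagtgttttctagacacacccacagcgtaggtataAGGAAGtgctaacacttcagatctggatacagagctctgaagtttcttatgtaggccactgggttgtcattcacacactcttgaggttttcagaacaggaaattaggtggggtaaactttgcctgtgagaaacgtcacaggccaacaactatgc
Tec: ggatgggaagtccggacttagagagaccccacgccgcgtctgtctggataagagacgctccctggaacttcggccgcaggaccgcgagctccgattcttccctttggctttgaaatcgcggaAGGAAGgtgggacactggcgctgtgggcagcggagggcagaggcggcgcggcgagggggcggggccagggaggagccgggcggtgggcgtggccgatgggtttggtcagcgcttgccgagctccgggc
Both windows hold 1 match to AGGAAG and none to the other motifs. G and C made up 68.4% of the Tec and 42.8% of the Txk window. Of the 39 genes 32 had a promoter in the table, and 19 of these 32 (59.4%) held AGGAAG, against 29.2% of 27025 promoters of the same length. The other motifs were in 7 (21.9%, GGAAAA), 1 (3.1%, TGTGGT) and 0 (TGANTCA) of the 32, against 20.7%, 14.2% and 6.9% of all. A match describes letters and not a bound site, and no share was taken among promoters of genes with a similar signal level.

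Among the adaptors 2 fell, 0 rose and 6 did not pass, and 1 had an unadjusted p below 0.05 on the higher side. Trat1 encodes TRIM, a transmembrane adaptor that associates with the receptor complex. Its values were 11.59, 11.44 and 11.46 in PBS and 10.84, 10.95 and 10.93 in HDM. The gap between the groups was larger than the spread inside either, and the signal fell by 0.59 (SE 0.08, adjusted p = 0.00722). This was the call that held in each of 13 alternative settings, with adjusted p of at most 0.0438. Its promoter window, chr16:48772063-48772312 on the minus strand, is shown as that of the most stable call, with capitals as above, here 1 RUNX match read on the opposite strand.
Trat1: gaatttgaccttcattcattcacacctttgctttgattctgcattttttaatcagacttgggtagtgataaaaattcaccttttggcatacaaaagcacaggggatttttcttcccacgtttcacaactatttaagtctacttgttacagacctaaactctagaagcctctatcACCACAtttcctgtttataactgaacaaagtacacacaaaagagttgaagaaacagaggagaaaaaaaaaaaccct
Pag1 encodes a membrane adaptor that brings CSK to lipid rafts and so restrains Src family kinases. It had 9.45, 9.47 and 9.51 in PBS and 9.11, 8.86 and 9.07 in HDM, with no overlap, and fell by 0.47 (SE 0.10, adjusted p = 0.0427). It did not pass without any of the 5 arrays other than HDM replicate 3, with adjusted p of up to 0.176. Lcp2 encodes SLP-76, the scaffold phosphorylated by ZAP-70. It had 12.32, 12.22 and 11.86 in PBS and 12.60, 12.57 and 12.43 in HDM, again with no overlap, and PBS replicate 3 stood lowest. The difference of 0.40 (SE 0.12) did not pass (adjusted p = 0.119, 0.0101 with the replicate block), and it was 0.264 without PBS replicate 3. Grap2 encodes GADS, which couples SLP-76 to LAT, and differed by −0.26 (SE 0.14, adjusted p = 0.368, 0.0438 with the block), or −0.119 without PBS replicate 3. Lat itself, the hub adaptor, differed by 0.11 (SE 0.07), Grb2, which recruits the Ras exchange factor SOS, by 0.16 (SE 0.09), Themis, a T cell adaptor needed in thymic selection, by 0.05 (SE 0.10), and Skap1, an adaptor for integrin activation, by −0.01 (SE 0.08). None of these 4 passed with limma, with the block or at an unadjusted p below 0.05.

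**Figure D3:**
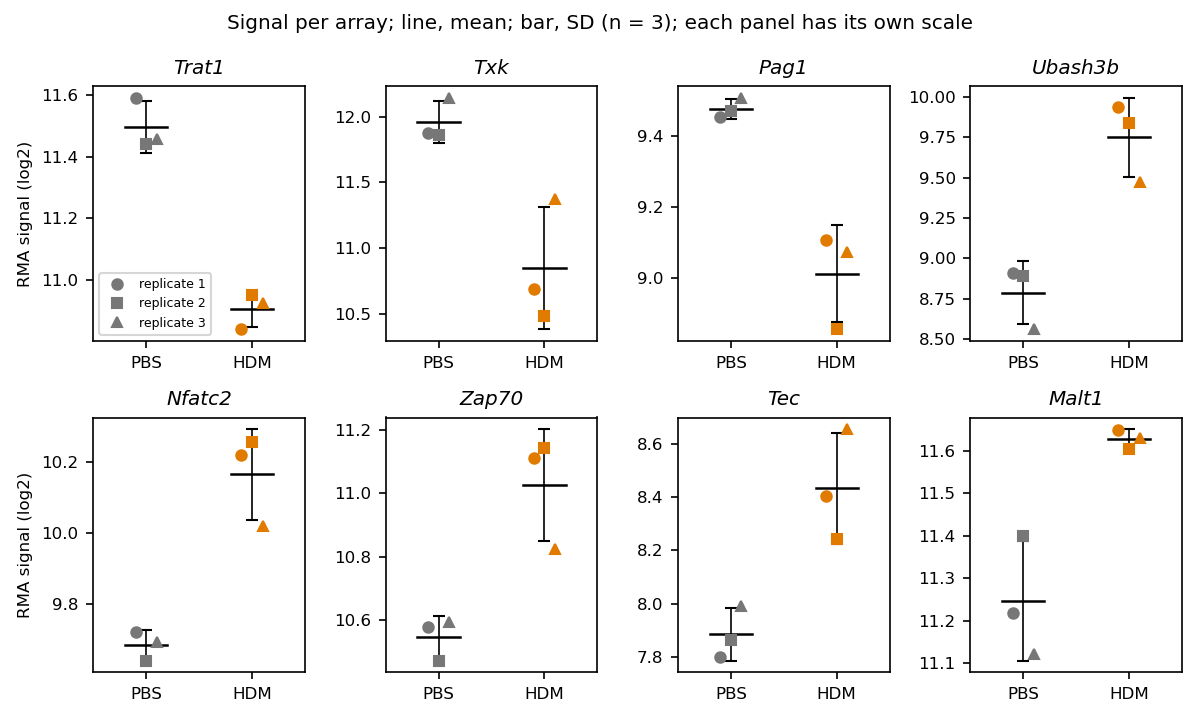
RMA signal (log2) of 8 genes in each array, by group; symbols give the replicate number, lines the mean and bars the SD (n = 3), and each panel has its own scale. The HDM and PBS values do not overlap in any of the 8 panels; HDM replicate 3 lies nearest to PBS for Txk, Zap70, Nfatc2 and Ubash3b.

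Enzymes just after the adaptors gave no call. Plcg1 encodes phospholipase C gamma 1, which makes diacylglycerol and the calcium signal, Vav1 an exchange factor, Rasgrp1 a diacylglycerol-driven exchange factor for Ras, and Rhoh a GTPase that helps ZAP-70 reach the receptor. Their differences lay between 0.05 and 0.22, with 0 of 4 past the threshold by limma, 0 with the block and 0 at an unadjusted p below 0.05. Vav1 had the largest of these differences. It gave 10.64, 10.59 and 9.94 in PBS and 10.76, 10.78 and 10.29 in HDM. Both arrays numbered 3 were lowest in their group, and the 95% interval of the difference ran from −0.27 to 0.70.

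In the branches to transcription, Nfatc2 rose. It encodes NFAT1, a calcium-dependent transcription factor of cytokine genes, and gave 9.72, 9.64 and 9.69 in PBS and 10.22, 10.26 and 10.02 in HDM. The groups did not overlap, and the rise was 1.40-fold (0.48, SE 0.09, adjusted p = 0.0324), with an adjusted p of up to 0.155 and no call without any of the 5 arrays other than HDM replicate 3. Nfatc3, another calcium-dependent member, had a difference of −0.03 with a 95% interval from −0.27 to 0.21. Malt1 and Bcl10, partners in the complex that activates NF-κB, differed in opposite directions. Malt1, its paracaspase, had 11.22, 11.40 and 11.12 in PBS and 11.65, 11.61 and 11.63 in HDM (0.38, SE 0.09, adjusted p = 0.05002, just above the threshold, and 0.0161 with the replicate block). Bcl10, its adaptor, had 10.74, 10.85 and 10.80 in PBS and 10.15, 10.32 and 10.57 in HDM (−0.45, SE 0.11, adjusted p = 0.0729, 0.0156 with the block). Neither gene's groups overlapped.

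Of the 9 negative enzymes, Csk among them, Ubash3b rose and 0 fell with limma, while 2 had an unadjusted p below 0.05 on the lower side. Ubash3b encodes STS-1, a phosphatase that acts on ZAP-70. It gave 8.91, 8.89 and 8.56 in PBS and 9.94, 9.84 and 9.47 in HDM. Every HDM value exceeded every PBS value, and both arrays numbered 3 were lowest in their group, so the differences within pairs were close: 1.03, 0.95 and 0.91. The rise was 1.95-fold (0.96, SE 0.15, adjusted p = 0.0156), the largest of the 39. It did not pass without replicate 1 or 2 of either group, with adjusted p of up to 0.0813. Its window is shown as that of the strongest rise, at chr9:41158063-41158312 on the minus strand, from the most upstream of 2 starts, with 2 overlapping AGGAAG and 2 GGAAAA matches in capitals, all read on the opposite strand.
Ubash3b: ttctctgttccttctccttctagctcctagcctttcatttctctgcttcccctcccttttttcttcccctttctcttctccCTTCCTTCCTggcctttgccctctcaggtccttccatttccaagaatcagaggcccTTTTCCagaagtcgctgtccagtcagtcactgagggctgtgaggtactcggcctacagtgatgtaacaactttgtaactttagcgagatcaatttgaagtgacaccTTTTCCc
Ubash3a, its T cell relative, differed by 0.15 (SE 0.12, adjusted p = 0.608), and passed only without both arrays numbered 3 (0.31, adjusted p = 0.0329). Ptpn6, which encodes SHP-1, differed by 0.26 (SE 0.15, adjusted p = 0.415) and Ptpn22, which encodes PEP, by 0.09 (SE 0.12, adjusted p = 0.788), so neither passed. The ubiquitin ligase gene Cblb, which sets the need for costimulation, had 11.75, 11.94 and 12.53 in PBS and 11.46, 11.27 and 11.87 in HDM. The groups overlapped, both arrays numbered 3 were high, and HDM was lower in each pair by 0.29, 0.66 and 0.66 (−0.54, SE 0.22, adjusted p = 0.243, 0.00788 with the block). Without PBS replicate 3 the difference was −0.308. Its relative Cbl differed by −0.03 (95% interval −0.31 to 0.25). Diacylglycerol kinases remove the second messenger that drives Rasgrp1 and protein kinase C theta. Dgka had 13.34, 13.27 and 13.12 in PBS and 13.02, 12.96 and 12.83 in HDM, with no overlap, and differed by −0.31 (SE 0.07, adjusted p = 0.0709, 0.00466 with the block). Dgkz differed by −0.04 (SE 0.13) at its brighter probe set and by 0.37 at a dimmer one, and averaging them gave 0.16 with an adjusted p of 0.461.

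For 7 pairs of related members the difference within each array was compared between HDM and PBS, with a two-sided exact permutation test over the 6 arrays. Tec minus Txk differed by 1.66, from −4.08 ± 0.08 in PBS to −2.42 ± 0.26 in HDM (SD, n = 3). Nfatc2 minus Nfatc3 differed by 0.51, from −2.04 ± 0.18 to −1.53 ± 0.06, and Dgka minus Dgkz by −0.27. Ubash3a minus Ubash3b differed by −0.82, from 1.62 ± 0.44 to 0.81 ± 0.21. These 4 pairs had separate groups, with an exact p of 0.1, the smallest that 3 against 3 arrays allow, and 0.175 after adjustment over the 7 pairs. Such a design cannot reach 0.05. Cbl minus Cblb differed by 0.51 (exact p = 0.4), Cd5 minus Cd6 by 0.03 (exact p = 0.8) and Cd3d minus Cd3g by 0.03 (exact p = 0.9). Within the pairs of same-numbered arrays Cbl minus Cblb was higher in HDM by 0.17, 0.55 and 0.80, but it differed by 0.142 without PBS replicate 3. An exact sign-flip test within those pairs, added after the data were seen, gave p = 0.25 for it and for the 4 pairs above, the smallest that 3 pairs allow, and p = 1 for the other 2. Those comparisons, of Cd5 with Cd6 and of Cd3d with Cd3g, are of neighbours on their chromosomes, as are Txk and Tec.

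**Figure D4:**
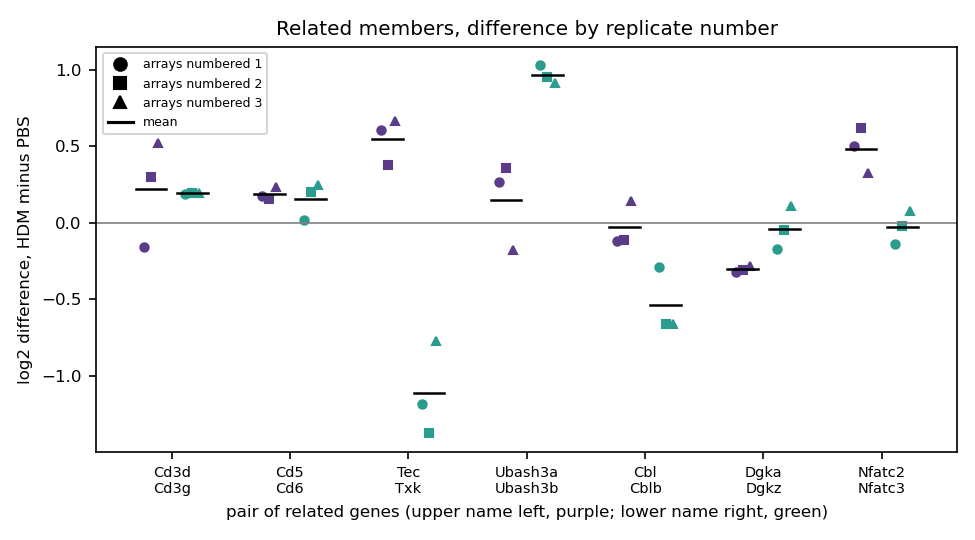
Log2 difference between HDM and PBS in each pair of same-numbered arrays (symbols) and its mean (line) for 7 pairs of related genes; purple is the upper and green the lower name. Tec lies above 0 and Txk below it in all 3 pairs of arrays, and Ubash3b, at 0.91 to 1.03, lies above Ubash3a.

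Other intracellular genes of the pathway were taken from a list of 71, chosen with earlier results of these data known. Of the 71, 57 were measured. Of these 7 rose, 1 fell and 49 did not pass, 14% against 3.95% of all genes. When only genes at or above the median level were tested, 8 of the list were higher and 1 lower, where 10.7% of genes were called. With the replicate block 15 were called higher and 5 lower, where 5.95% and 6.01% of all genes were. Without both arrays numbered 3 the counts were 14 and 5, where 11.6% of all genes were called in either direction. The 57 had a median difference of 0.00. Of 38 positive regulators Vav2, an exchange factor, rose (8.07, 8.09 and 8.03 in PBS, 8.55, 8.48 and 8.47 in HDM; 0.44, SE 0.09, adjusted p = 0.0349). None of them fell by limma. At an unadjusted p below 0.05, 6 of the 38 were higher and 8 lower, where 8.67% and 9.17% of all genes were. With the block 6 were called higher and 4 lower, against the block shares above. Of 19 negative regulators 6 rose, 1 fell and 12 did not pass, with a median of 0.24. The share called was 36.8%, against 3.95% of all genes. At an unadjusted p below 0.05, 10 of the 19 were higher and 2 lower, and with the block 9 and 1, against the same shares of all genes as above. Whether positive and negative regulators of this list differ was not tested.

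Among the negative regulators called higher, the largest difference was that of Cish, a cytokine-induced SOCS family member also described to limit receptor signalling. It gave 9.61, 9.66 and 9.46 in PBS and 10.79, 10.70 and 10.70 in HDM, with no overlap and a 1.15 difference (SE 0.09, adjusted p = 0.00135). Rnf128, a dimmer gene of the list, differed by more but did not pass (1.25, SE 0.33, adjusted p = 0.085, 0.0092 with the block). Its differences within the pairs were 1.86, 1.22 and 0.68. Ptpn7, a phosphatase of the MAP kinases ERK and p38, had 9.26, 9.19 and 8.92 in PBS and 10.40, 10.41 and 9.96 in HDM (1.13, SE 0.15, adjusted p = 0.00789). Sla, an adaptor that sends receptor chains to degradation, rose by 0.67 (SE 0.13, adjusted p = 0.0325). The transmembrane adaptors Lax1 and Sit1, both inhibitors of receptor signalling, rose by 0.60 (SE 0.11, adjusted p = 0.0247) and 0.47 (SE 0.07, adjusted p = 0.0162). Inpp5d, the lipid phosphatase SHIP-1, rose by 0.45 (SE 0.08, adjusted p = 0.022). Rasa2, a GTPase-activating protein for Ras, had 9.84, 9.93 and 9.90 in PBS and 9.41, 9.49 and 9.46 in HDM, and fell by 0.44 (SE 0.08, adjusted p = 0.0272). The 8 called genes had separate groups, and Cish and Ptpn7 also passed whichever single array was left out (adjusted p of at most 0.0139 and 0.0486). The pathway counts were 2 higher and 0 lower without replicate 1 or 2 of either group, 5 and 1 without PBS replicate 3, and 12 and 2 without HDM replicate 3, against the shares of all genes given above for those settings.

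**Figure D5:**
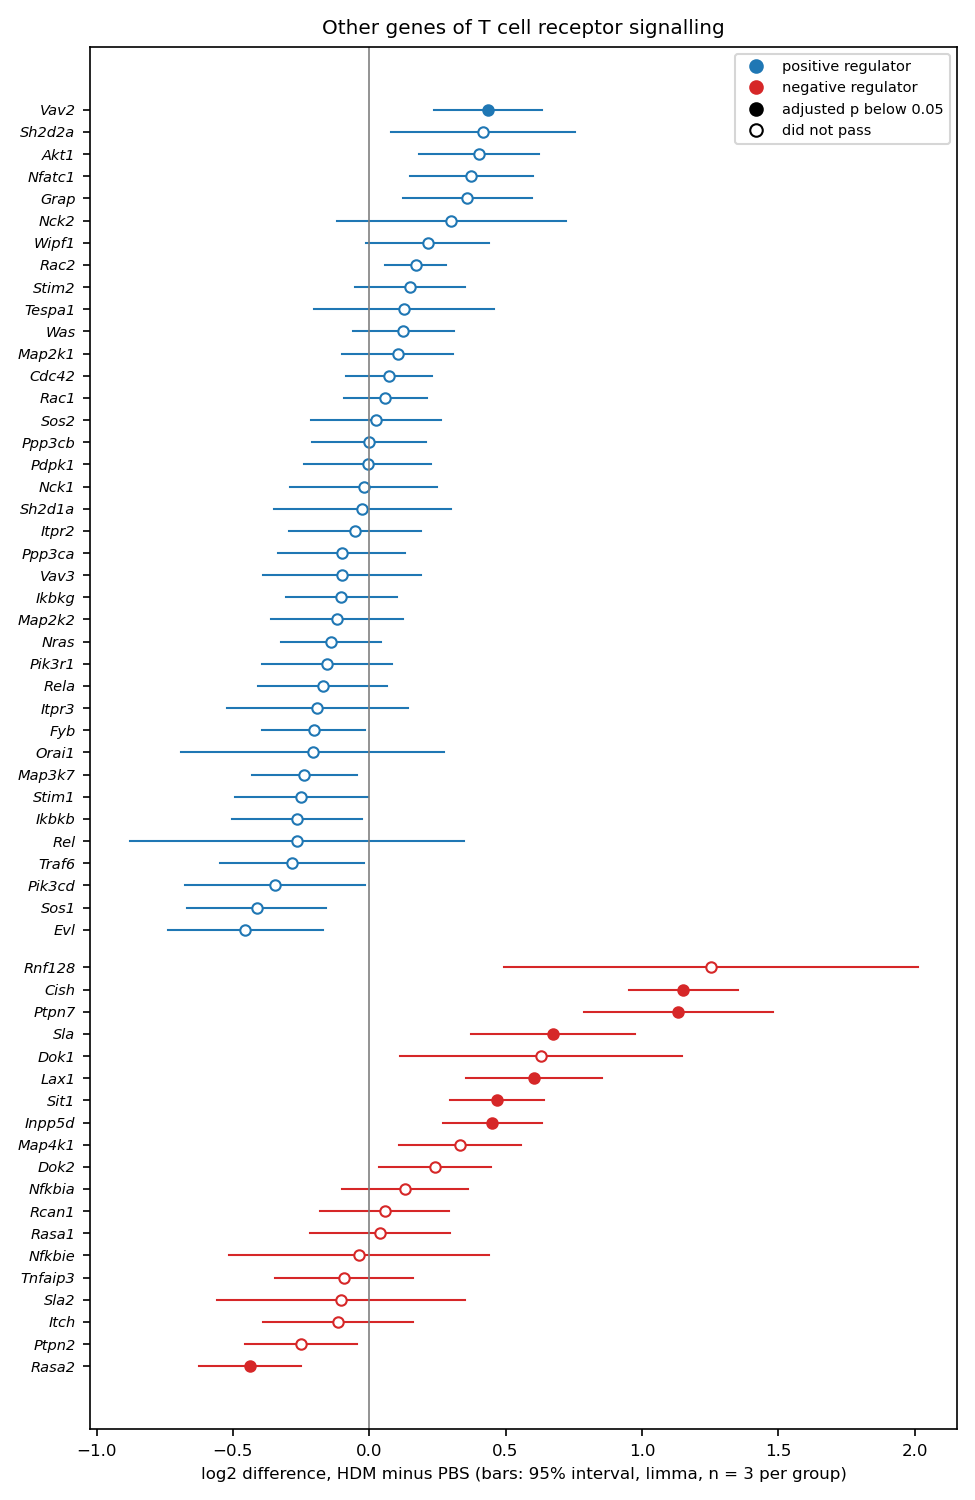
Log2 difference between HDM and PBS for the 57 other pathway genes with the 95% interval of the limma fit (3 arrays per group); filled points passed at an adjusted p below 0.05. The filled red points, negative regulators, lie between 0.45 and 1.15 except Rasa2 at −0.44, and the filled blue point is Vav2.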

How the data were processed

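The deposited log2 signals per probe set were made by the authors with RMA (version not stated), per the submitters' processing notes. Of 33960 probe sets, 23521 had exactly 1 symbol in the platform annotation, 1814 had several and 8625 had none here. They gave 22180 genes, each read from its brightest probe set. All 39 members were measured, 38 of them by 1 such probe set. Any 2 arrays shared at most 5 identical values.

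HDM minus PBS was tested with limma 3.58.1 in R 4.3.3 (lmFit, eBayes with an intensity trend, two-sided), with Benjamini-Hochberg adjustment over all genes and a threshold of 0.05. No dim gene was removed. Members and lists were chosen with earlier results of these data known. Text names every member, up to 8 called pathway genes per direction and, per marker list, its brightest gene, beside the gate genes. Itgax, Cdh1, Csf1r, Cdh5, Sftpc and Rnf128 were picked after their values were seen. Alternatives were the replicate block, removal of genes below the median level, repeated quantile normalization, centring on array medians, no intensity trend, array weights, averaged probe sets and leaving out each array. Deviations of same-numbered arrays correlated at 0.43, 0.17 and 0.53, each above the minimum of 0.1 for treating the numbers as pairs. Between unlike numbers, PBS replicate 1 correlated with HDM replicate 2 at 0.25, more than the arrays numbered 2 did with each other. PBS replicate 2 correlated with HDM replicate 1 at 0.04. Values that set an array numbered 3 against another number ran from −0.5 to −0.16. Tests were also run on simulated data. With 22180 genes of which 200 were changed, 31.6% of genes changed by 0.5 for HDM against PBS were recovered, and 77.6% of those changed by 1. Some pathway and marker genes were not analysed here, and no scan dates were used. RMA sets distributions equal, so a change in total RNA per cell cannot be seen.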

Additional observations from a re-analysis of the deposited data

How the results depend on the processing

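With the replicate number as a block, 8 members were called higher and 8 lower, and 15 and 5 pathway genes, where 12% of all genes, dim ones included, were called. Array weights, under which 8.28% of all genes were called against 3.95% without them, gave 5 and 5 members and 13 and 2 pathway genes. Without both arrays numbered 3 (added after the data were seen) 7 and 7 members and 14 and 5 pathway genes were called, where 11.6% of all genes were. Removing dim genes gave 5 members higher, and centring on array medians gave 1. In these settings 10.7% and 3.44% of the genes tested were called in either direction. Leaving out 1 array gave 0 to 3 members higher and 1 to 4 lower, and 2 to 12 pathway genes higher and 0 to 2 lower. In those fits 0.983% to 7.06% of all genes were called. At the count of 0 higher members, 7 to 9 had an unadjusted p below 0.05 with limma, where 6.78% to 7.24% of all genes were higher. At 0 lower pathway genes 3 to 8 did, where 5.96% to 7.94% of all genes were lower. The median difference of positive regulators ran from −0.009 to 0.128 without 1 array and that of negative regulators from 0.061 to 0.117. The latter was 0.166 with repeated quantile normalization and 0.029 without genes of both roles. Zap70, Pag1 and Nfatc2 missed the threshold after centring on array medians (adjusted p = 0.0681, 0.0524 and 0.0524), and Zap70 without the intensity trend. The cause of these moves was not tested. No called member changed sign under an alternative run here, which separate groups fixed in advance when arrays were left out. The 3 arrays per group limit the precision of each value.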
